A study of Caenorhabditis elegans with 16 samples.

Results

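The late-numbered miRNAs of Caenorhabditis elegans are those with gene numbers of 784 or higher, which entered the registry after the abundant and conserved families had been named. The small RNA files listed 178 strands with such numbers, and 97 of them had a summed count of at least 5 unique molecular identifiers (UMIs, random nucleotides that mark single ligated molecules) over 16 libraries. These 97 strands, of 366 strands listed in all, came from 70 hairpins, with 38 strands on the 5p arm and 59 on the 3p arm. The strands were chosen by this summed UMI count, so their totals are given as a description, with no test. The 5 strands just inside the limit stood at 5 UMIs (mir-2209b-3p, mir-2218a-3p, mir-2219-3p, mir-4807-5p and mir-4924-5p), and the highest strand just outside it stood at 4.5 UMIs.

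Each library came from 50 whole embryos at the comma stage, when the embryo begins to bend before it elongates, with 2 libraries for each of 8 strains. The embryos came from hermaphrodites, adult for 1 day, kept at 20C with OP50 as food, and received no treatment. They were picked at an early cleavage stage and left to develop. The 7 mutant strains carried deletions of the miR-51 family, a family of 6 related miRNAs with a shared seed. They were the family null (MLC1800: nDf67, n4100 IV; nDf58 X; with the array lucEx1057, a fosmid that carries the miR-54 cluster), the strain with the miR-54 cluster only (MLC2290: nDf67, n4100 IV), miR-54 and miR-55 only (MLC2394: n4100, nDf67 IV; mir-56(luc177) X) and the slow-growing strain with miR-54 only (MLC2393: miR-55-56(luc180) X; n4100, nDf67 IV). In 3 further strains, all with nDf67 and nDf58, the mir-52 hairpin was replaced by another, namely that of miR-51 (MLC1997: luc143), that of miR-57 with its seed mutated to the miR-51 seed (MLC1918: luc141) or that of miR-53 (MLC1917: luc140). N2 was the wild type. The labels do not say whether the embryos of the null libraries carried the array. Each strain had its own 3′ adapter barcode, so barcode and genotype cannot be told apart. The methods call the 2 libraries of a strain independent, but neither they nor the labels say that these came from separate cultures. The p-values therefore measure only the spread between these libraries.

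A miRNA hairpin is cut by Drosha and then by Dicer to a duplex, of which one arm, the 5p or the 3p strand, is usually retained by an Argonaute protein and pairs with target mRNAs through its seed. Some hairpins bypass Drosha because they fill a whole short intron, and are released by splicing and debranching. These are known as mirtrons. Many late-numbered worm miRNAs were found by deep sequencing and are known in nematodes alone, whereas a few belong to older seed families.

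The libraries held from 18481 to 844718 UMIs, with a median of 103072 over the 16. Wild-type replicate 1 was the deepest and held 30.4% of all UMIs on the late-numbered strands and 34.0% of all UMIs. Levels are given per UMIs on strands outside the miR-51 family (14011 to 609585 per library), because the family itself was deleted, either per 1000 or as counts per 1000000 (CPM). The mir-35 family (mir-35-3p to mir-42-3p), which is restricted to oocytes and embryos, took 42.0 to 55.4% of these UMIs in every library. The 5 markers of later development (lin-4-5p, let-7-5p, mir-48-5p, mir-84-5p and mir-241-5p, which time larval fates) summed to 206 to 5567 CPM, with a median of 995. They were highest in miR-53-hairpin replicate 1 (5567), miR-54-only replicate 1 (4846) and miR-51-hairpin replicate 2 (3050.2), in which the mir-35 family was lowest (42.0, 44.7 and 42.4%). The part of developmental age in the results was not tested, and values without these 3 libraries are given where it matters.

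The 97 strands made up 26.5% of the strands listed but carried only 7216 of 2009540 UMIs outside the family, or 3.59 per 1000. Their median total was 22 UMIs, against 64 for the 257 other strands outside the family. These 257 include the 81 late-numbered strands under the limit of 5 UMIs, so the 64 is not a median of lower-numbered miRNAs alone. Of the 97, 19 had 100 UMIs or more and held 73.3% of the UMIs, the 10 most abundant held 58.0%, and 18 had fewer than 10 UMIs. The 10 strands in front were mir-4813-3p (676 UMIs), mir-1829b-5p (593), mir-8196a-3p (571), mir-787-3p (507), mir-1829c-5p (408), mir-1822-3p (388), mir-4816-3p (345), mir-1820-5p (312), mir-5546-3p (196) and mir-1829a-3p (186). They were followed by mir-4813-5p (173), mir-796-5p (151), mir-1822-5p (119), mir-1823-3p (117), mir-1829a-5p (113), mir-4936-3p (113), mir-786-3p (111), mir-790-5p (108) and mir-8196b-3p (103). No strand of the group came near the leading miRNAs of the embryo, since the 97 together carried less than the 3p strand of mir-62 alone (19441 UMIs), an older mirtron.

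Pooled over the 97 strands, the level was 3.73 and 2.99 UMIs per 1000 in the family null, 3.64 and 3.83 with the miR-54 cluster only, 3.39 and 2.45 with miR-54 and miR-55 only, 4.26 and 3.27 with miR-54 only, 3.15 and 4.40 in the miR-51-hairpin strain, 2.93 and 3.23 in the miR-57-hairpin strain, 4.87 and 3.38 in the miR-53-hairpin strain, and 3.59 and 3.29 in wild type. Strain means ranged from 2.92 ± 0.66 (miR-54 and miR-55 only) to 4.12 ± 1.05 (miR-53 hairpin), against 3.44 ± 0.22 in wild type (SD, n = 2 each). Both libraries with the miR-54 cluster only were above both wild-type libraries and both in the miR-57-hairpin strain were below them, whereas the ranges of the other mutant strains overlapped with wild type. The widest gap between replicates, in the miR-53-hairpin strain, was larger than the gap between any mutant mean and wild type. The exact 95% binomial interval, which covers counting error only, ran from 3.77 to 6.15 for miR-53-hairpin replicate 1, which rested on 68.2 UMIs, and from 3.45 to 3.75 for wild-type replicate 1. The 3 libraries highest in the larval markers were also the 3 with the highest pooled level (4.87, 4.40 and 4.26). Without them the mean over libraries was 3.30 per 1000, against 3.52 ± 0.60 with all 16 (SD, n = 16). The order of strains depends on the denominator. In wild-type replicate 1, 609585 of 844718 UMIs lay outside the family, against 49038 of 49117 in miR-57-hairpin replicate 1. Over all UMIs, both miR-57-hairpin libraries were above both wild-type libraries. The same held for the other mutant strains except miR-54 and miR-55 only and the miR-51-hairpin strain, which overlapped with wild type.

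**Figure D1:**
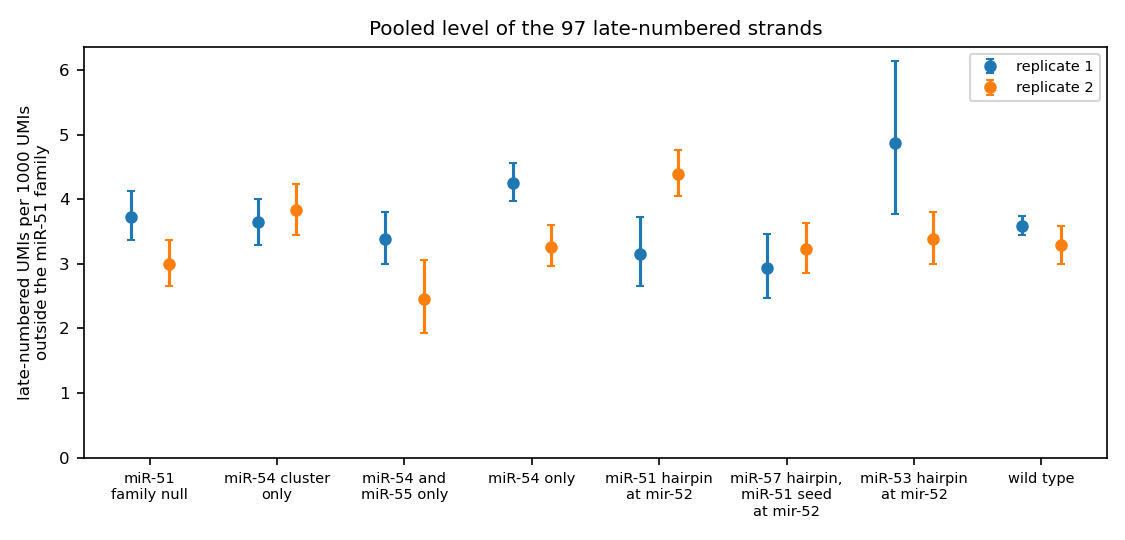
Pooled level of the 97 late-numbered strands in each library, in UMIs per 1000 UMIs on strands outside the miR-51 family, by strain (points are libraries, bars are exact 95% binomial intervals). The 16 libraries lie between 2.45 and 4.87, and the wild-type libraries, at 3.59 and 3.29, lie within that range.

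The 10 leading strands are described one by one, in CPM, with both libraries of each strain. The hairpin of mir-4813-3p lies on chromosome III (4571640 to 4571716, plus strand, WBcel235), within the 3′ UTR of idhg-1, which encodes a subunit of isocitrate dehydrogenase. It stood at 371 and 231 in the family null, 268 and 355 with the miR-54 cluster, 311 and 159 with miR-54 and miR-55, 243 and 268 with miR-54, 360.4 and 297 in the miR-51-hairpin strain, 428 and 449 in the miR-57-hairpin strain, 285 and 417 in the miR-53-hairpin strain, and 394 and 307 in wild type. It was counted in every library, lowest in the second library with miR-54 and miR-55. Both miR-57-hairpin libraries were above wild type and both miR-54-only libraries below it.

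The 3 mir-1829 hairpins lie in introns of gas-1, F20D1.3 and piki-1, all on chromosome X (mir-1829a at 15588311 to 15588370, minus strand; mir-1829b at 14977119 to 14977178, plus strand; mir-1829c at 15236362 to 15236423, minus strand). Together their 6 strands carried 1351 UMIs, 18.7% of the UMIs of the group. The strand mir-1829b-5p stood at 293 and 187 in the family null, 339.8 and 304 with the miR-54 cluster, 299 and 223 with miR-54 and miR-55, 205 and 253 with miR-54, 315 and 223 in the miR-51-hairpin strain, 285 and 388 in the miR-57-hairpin strain, 571 and 524 in the miR-53-hairpin strain, and 310.0 and 281 in wild type. Both libraries in the miR-53-hairpin strain exceeded every other library, but the 571 was only 8 UMIs in the shallowest library. The 524 was 44 UMIs. The strand mir-1829c-5p stood at 146 and 297 in the family null, 161 and 213 with the miR-54 cluster, 119 and 0 with miR-54 and miR-55, 172 and 99.6 with miR-54, 203 and 223 in the miR-51-hairpin strain, 61.2 and 243 in the miR-57-hairpin strain, 214 and 155 in the miR-53-hairpin strain, and 261 and 224 in wild type. The 0 came from the second library with miR-54 and miR-55, in which 3 UMIs would be 95.5 CPM. The strand mir-1829a-3p stood at 146 and 110.1 in the family null, 71.5 and 70.9 with the miR-54 cluster, 47.8 and 159 with miR-54 and miR-55, 64.7 and 123 with miR-54, 113 and 134 in the miR-51-hairpin strain, 102 and 72.8 in the miR-57-hairpin strain, 357 and 107 in the miR-53-hairpin strain, and 80.4 and 76.7 in wild type. Its highest value, 357, was 5 UMIs in the shallowest library.

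The hairpin mir-8196a lies in an exon of the noncoding linc-154 (X, 2329038 to 2329103, plus strand). Its 3p strand stood at 225 and 143 in the family null, 358 and 375 with the miR-54 cluster, 251 and 159 with miR-54 and miR-55, 345 and 306 with miR-54, 270.3 and 267 in the miR-51-hairpin strain, 204 and 146 in the miR-57-hairpin strain, 71.4 and 274 in the miR-53-hairpin strain, and 299 and 332 in wild type. Both libraries were below both wild-type libraries in the family null, with miR-54 and miR-55 and in the 3 hairpin replacement strains, and both were above them with the miR-54 cluster. The 71.4 was 1 UMI, and the 159 of this strand was 5 UMIs. Every strain was set against the same 2 wild-type libraries, and none of these differences was called in the fit described below. The intergenic mir-787 (X, 11294708 to 11294797, plus strand) had 254 and 220.2 on its 3p strand in the family null, 224 and 324 with the miR-54 cluster, 311 and 159 with miR-54 and miR-55, 345 and 214 with miR-54, 203 and 319 in the miR-51-hairpin strain, 204 and 219 in the miR-57-hairpin strain, 285 and 203 in the miR-53-hairpin strain, and 234.6 and 236 in wild type. Its spread over the 16 libraries was the narrowest of the 10, at 1.16 for the chi-square against equal shares divided by its degrees of freedom, where 1 is what counting error alone would give.

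The hairpin mir-1822 lies in an intron of ZK84.2 (II, 6015534 to 6015627, plus strand). Its 3p strand stood at 391 and 110.1 in the family null, 224 and 203 with the miR-54 cluster, 95.5 and 159 with miR-54 and miR-55, 205 and 237 with miR-54, 158 and 230.1 in the miR-51-hairpin strain, 102 and 85.0 in the miR-57-hairpin strain, 285 and 167 in the miR-53-hairpin strain, and 200.1 and 134 in wild type. The 2 libraries of the family null gave the highest value of all and the fourth lowest. The hairpin mir-4816, which fills an intron of T09B4.2 (I, 6185080 to 6185144, plus strand), had 166 and 209 on its 3p strand in the family null, 197 and 193 with the miR-54 cluster, 119 and 159 with miR-54 and miR-55, 243 and 138 with miR-54, 158 and 245 in the miR-51-hairpin strain, 122 and 206 in the miR-57-hairpin strain, 285 and 119 in the miR-53-hairpin strain, and 148 and 147 in wild type. The 2 wild-type values were close together, and both libraries of the family null, the miR-54 cluster strain and the miR-51-hairpin strain were above them.

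The intergenic mir-1820 (IV, 7767461 to 7767567, plus strand) had 186 and 77.1 on its 5p strand in the family null, 174 and 70.9 with the miR-54 cluster, 161 and 95.5 with miR-54 and miR-55, 199 and 176 with miR-54, 236 and 275 in the miR-51-hairpin strain, 133 and 109 in the miR-57-hairpin strain, 143 and 143 in the miR-53-hairpin strain, and 144 and 114.99 in wild type. Both libraries in the miR-51-hairpin strain exceeded every other library. The hairpin mir-5546, in an intron of arx-1 (I, 2888448 to 2888557, minus strand), had 146 and 198 on its 3p strand in the family null, 107 and 152 with the miR-54 cluster, 47.8 and 31.8 with miR-54 and miR-55, 119 and 53.6 with miR-54, 67.6 and 104 in the miR-51-hairpin strain, 81.6 and 109 in the miR-57-hairpin strain, 0 and 95.3 in the miR-53-hairpin strain, and 82.0 and 89.4 in wild type. The highest value was in the family null, and the libraries with miR-54 and miR-55 held 4 and 1 UMIs.

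**Figure D2:**
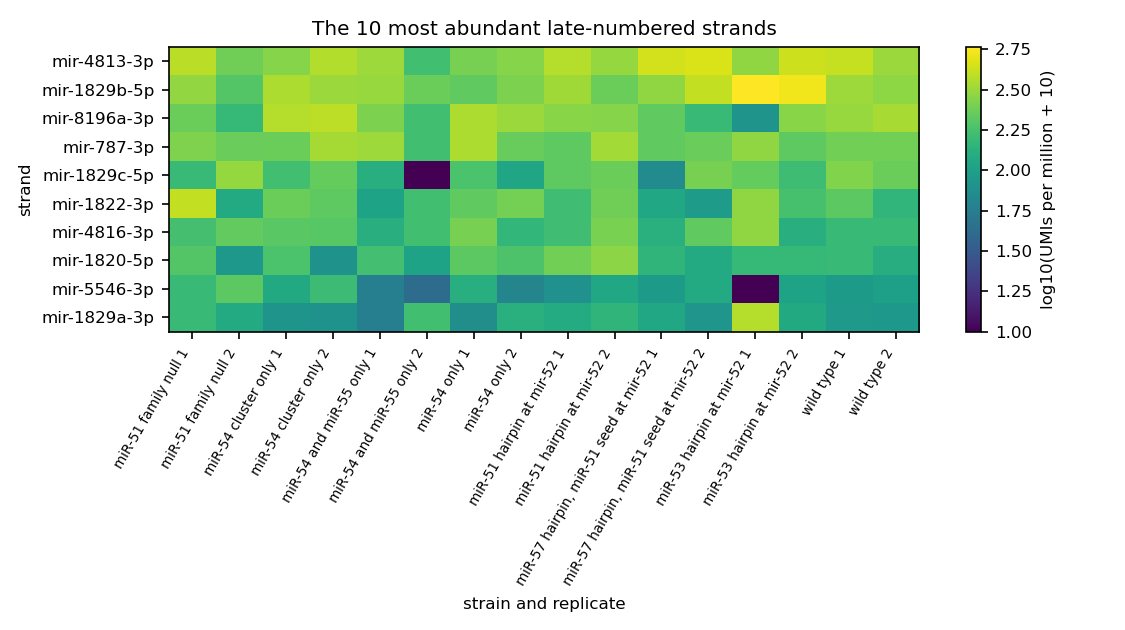
Levels of the 10 most abundant late-numbered strands (rows) in the 16 libraries (columns, strain and replicate), coloured by log10 of the level in CPM with 10 added. The brightest cells are mir-1829b-5p in the 2 miR-53-hairpin libraries, at 571 (8 UMIs) and 524 (44 UMIs). The 2 darkest are counts of 0, for mir-1829c-5p in miR-54 and miR-55 only replicate 2 and for mir-5546-3p in miR-53-hairpin replicate 1.

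Each mutant strain was then compared with wild type in one fit over all 162 strands that had at least 10 UMIs in at least 2 libraries (edgeR quasi-likelihood test, adjusted by the Benjamini-Hochberg method, called at an adjusted p under 0.05). Only 24 of the 97 late-numbered strands passed this filter, and the other 73 were not tested in this fit. The filter is on raw counts in libraries of unequal depth. It left out mir-1823-3p, for example, which had 117 UMIs and was counted in all 16 libraries. With a limit of 5 UMIs in 2 libraries, 39 late-numbered strands were tested. None of the 24 was called in any of the 7 comparisons. The share of all strands called, miR-51 family strands included, was 12.3% in the family null, 3.7% with the miR-54 cluster only, 5.56% with miR-54 and miR-55 only, 11.1% with miR-54 only, 14.2% in the miR-51-hairpin strain, 8.02% in the miR-57-hairpin strain and 8.64% in the miR-53-hairpin strain. With DESeq2 on the same counts no late-numbered strand was called either. At an unadjusted p under 0.05 the edgeR fit held 0 late-numbered strands in the family null, 0 with the miR-54 cluster only, 3 with miR-54 and miR-55 only, 0 with miR-54 only, 1 in the miR-51-hairpin strain, 0 in the miR-57-hairpin strain and 3 in the miR-53-hairpin strain.

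The median log2 fold change of the 24 strands was 0.09 in the family null (all strands tested, -0.01), 0.01 with the miR-54 cluster only (0.04), -0.14 with miR-54 and miR-55 only (-0.12), 0.27 with miR-54 only (0.16), 0.22 in the miR-51-hairpin strain (0.12), -0.45 in the miR-57-hairpin strain (-0.14) and 0.12 in the miR-53-hairpin strain (0.09). These medians changed sign when 1 library was left out in 4 comparisons: to -0.50 without replicate 1 of the family null, to -0.18 without replicate 1 of the miR-54-only strain, to -0.28 without replicate 2 of the miR-51-hairpin strain, and to -0.03 in the miR-53-hairpin strain without wild-type replicate 2. Scaling changed the medians too. With trimmed-mean (TMM) scaling they turned to -0.10 with the miR-54 cluster only (all strands tested, -0.07), -0.04 in the miR-51-hairpin strain (-0.11) and -0.05 in the miR-53-hairpin strain (-0.12). When all strands set the library size, they turned to 0.26 with miR-54 and miR-55 only (0.28) and 0.05 in the miR-57-hairpin strain (0.36). They then rose to 0.56 in the family null (0.47) and 0.68 with miR-54 only (0.58). All 7 comparisons share the 2 wild-type libraries. The lowest adjusted p belonged to the intergenic mir-4936-3p, which stood at 263 and 63.7 CPM with miR-54 and miR-55 only, against 45.9 and 25.6 in wild type (log2 fold change 2.24 ± 0.71 SE, edgeR adjusted p = 0.094). The first of these libraries held 22 UMIs. Without it the log2 fold change was 0.71, and without the second library it was 2.74 and the strand was called. In the same strain mir-1822-5p had 11.9 and 0 CPM, against 62.3 and 83.1 in wild type (log2 fold change -2.91 ± 1.18 SE, edgeR adjusted p = 0.269), and mir-1829c-5p had a log2 fold change of -1.61 ± 0.69 (SE, edgeR adjusted p = 0.296). In the miR-53-hairpin strain, mir-796-5p had 0 and 11.9 CPM, from 0 and 1 UMIs, against 65.6 and 63.9 in wild type (log2 fold change -2.57 ± 0.98 SE, edgeR adjusted p = 0.125). There mir-1829b-5p had a log2 fold change of 0.86 ± 0.35 (SE, edgeR adjusted p = 0.150), and in the miR-57-hairpin strain mir-8196a-3p had -0.87 ± 0.41 (SE, edgeR adjusted p = 0.369). The strand mir-1019-5p had 0 UMIs in both miR-53-hairpin libraries, against 49.2 and 63.9 CPM in wild type. In the mutant libraries 3 UMIs would have been 214 and 35.7 CPM, so only the second was deep enough to show a level below that of wild type.

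A few strands were counted unevenly over the libraries. The strand mir-786-3p, whose hairpin lies 32 bases from mir-240 on chromosome X and which sets the rhythm of defecation through the intestine, stood at 9.76 and 88.1 CPM in the family null, 53.7 and 91.2 with the miR-54 cluster, 59.7 and 31.8 with miR-54 and miR-55, 151 and 15.3 with miR-54, 0 and 178 in the miR-51-hairpin strain, 0 and 12.1 in the miR-57-hairpin strain, 214 and 59.6 in the miR-53-hairpin strain, and 24.6 and 19.2 in wild type. Its 3 highest libraries were the 3 highest in the larval markers. The 214 among them was 3 UMIs in miR-53-hairpin replicate 1, where a single UMI stood for 71.4 CPM. The log2 fold change against wild type was 2.25 ± 1.04 in the miR-51-hairpin strain (SE, edgeR adjusted p = 0.193), and it turned to -4.58 without replicate 2 of that strain, which left a library with 0 UMIs.

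The strand mir-788-5p was concentrated in a single library. Of its 48 UMIs, 38 came from miR-54-only replicate 1 (205 CPM), while replicate 2 of that strain held 0, and wild type held 1 and 0 UMIs. It was counted in 6 of 16 libraries, and of the other 5, the most UMIs were the 5 in miR-51-hairpin replicate 2. The strand did not pass the filter on low counts and was not tested in the fit above. The library with the 38 UMIs held 4846 CPM of larval markers, against 896 in the other library of the strain. In miR-53-hairpin replicate 1, with 5567 CPM of larval markers, mir-788-5p had 0 UMIs, where 3 UMIs would be 214 CPM, so a level of 205 CPM was not detectable as different from 0 there. The part of developmental age in this value was not tested.

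The 2 hairpins listed here under the mir-228 seed, mir-790 and mir-791, both strands of each included, summed to 172 UMIs. Their seed sequences were not checked. mir-791 is known for its role in the neurons that sense CO2. The strand mir-790-5p stood at 97.6 and 11.01 CPM in the family null, 26.8 and 40.5 with the miR-54 cluster, 59.7 and 95.5 with miR-54 and miR-55, 43.1 and 38.3 with miR-54, 0 and 178 in the miR-51-hairpin strain, 163 and 24.3 in the miR-57-hairpin strain, 285 and 47.7 in the miR-53-hairpin strain, and 34.4 and 38.3 in wild type. It was high in 2 of the 3 libraries with the most larval markers and also in miR-57-hairpin replicate 1, one of the lowest in those markers (347 CPM). The 285, in miR-53-hairpin replicate 1, was 4 UMIs, and the 163 in miR-57-hairpin replicate 1 was 8. By the same chi-square measure, mir-788-5p (19.3), mir-786-3p (7.202), mir-790-5p (5.53) and mir-4936-3p (5.45) varied most among the 53 members with 20 UMIs or more. The median of those 53 was 1.26, and 43 of them were under 2. The 71 other strands of 20 UMIs up to the highest late-numbered total had a median of 2.12. This measure grows with the count at a given relative spread, and totals were not matched. The medians therefore do not show which strands were steadier.

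**Figure D3:**
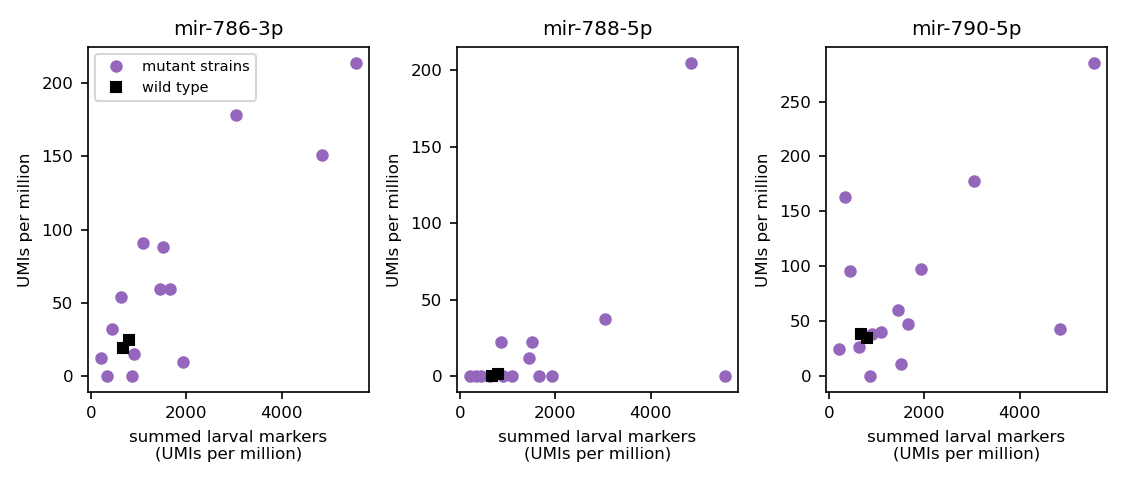
Levels of mir-786-3p, mir-788-5p and mir-790-5p (CPM, vertical axes) against the summed level of 5 larval marker miRNAs (CPM, horizontal axes), with circles for mutant libraries and squares for the 2 wild-type libraries. The highest mir-788-5p library stands at 205, from 38 UMIs. The highest mir-786-3p and mir-790-5p libraries stand at 214 and 285, from only 3 and 4 UMIs in the shallowest library.

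The hairpins with the let-7 seed (mir-793, mir-794, mir-795 and mir-1821) were rare in the embryo, with 49 UMIs on 5 strands. No strand of mir-794 was listed, and 47 of the UMIs lay on the 3 strands that reached the limit of 5 UMIs. The leading one, mir-1821-3p, had 22 UMIs, and its hairpin lies 348 bases from mir-792 on chromosome V. A set of single miRNAs that are described in the worm literature (mir-785, mir-786, mir-787, mir-788, mir-796, mir-1820 and mir-1822) summed to 1742 UMIs, of which mir-787-3p and mir-1822-3p gave most. They ranged from 558 to 1342 CPM per library, with a median of 821.

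Several members come in near-identical copies, and for these the authors' division of UMIs over strands that share a read decides the count. Of the 97 strands, 20 had a fractional UMI count in some library. The ratio of UMIs counted in full to divided UMIs was 3 for mir-1829b-3p and 2.98 for mir-1829c-3p, 2 for mir-1832a-5p, 3 for mir-1832a-3p, 2.02 for mir-789-1-3p and mir-789-2-3p, and 2.06 for mir-5592-1-3p and mir-5592-2-3p. The mir-5592 copies lie on opposite strands of nearly the same stretch of chromosome X (13759245 to 13759308, minus strand, and 13759247 to 13759310, plus strand, at an intron of aakb-1). Each was given 53.9 UMIs on its 3p strand, so their counts cannot be assigned to one copy. In contrast, mir-1829b-5p, mir-1829c-5p and mir-8196a-3p had a ratio of 1, and their UMIs were not shared.

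Of 48 late-numbered hairpins with at least 20 UMIs on both arms together, 39 had UMIs on both arms. The 3p arm held most UMIs in 32 and the 5p arm in 16. These counts take the copies of mir-5592 and of mir-789 as separate hairpins, although they share UMIs. The 39 include mir-4805, whose 5p arm held only 0.138 UMIs. The major arm held a median of 90.7%, at least 90% in 26 hairpins and under 70% in 6. Over all libraries the 5p arm held 95.9% of mir-1829b (95% exact interval, 94.1 to 97.4) and 94.0% of mir-1829c (91.3 to 96.0), but 37.8% of mir-1829a (32.3 to 43.6), so the paralogs differed in the arm that was counted. Their 3p strands mir-1829b-3p and mir-1829c-3p share their UMIs with other strands, whereas mir-1829a-3p does not.

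As means over libraries with at least 10 UMIs on the hairpin, the 5p share was 95.7 ± 2.99% for mir-1829b (SD, n = 14), 93.8 ± 2.39% for mir-1829c (n = 12), 41.2 ± 11.2% for mir-1829a (n = 11), 18.7 ± 8.15% for mir-4813 (n = 14), 13.8 ± 6.73% for mir-8196a (n = 14), 26.2 ± 14.2% for mir-1822 (n = 12), 17.0 ± 9.46% for mir-4816 (n = 12), 92.2 ± 6.12% for mir-1820 (n = 10) and 2.18 ± 3.16% for mir-787 (n = 13). Summed over libraries, it was 73.97% for mir-790 (66.1 to 80.9) and 23.1% for mir-791 (8.97 to 43.6), which were listed in the same seed group. The 5p arm held 97.4% of mir-796 (93.5 to 99.3) and 98.0% of mir-788 (89.1 to 99.9), and the 3p arm 100% of mir-786 (96.7 to 100) and of mir-785 (94.1 to 100). Hairpins in which neither arm was clearly the major one were mir-4927 (5p 42.9%, 26.3 to 60.6), mir-800 (56.5%, 34.5 to 76.8), mir-1832a (58.1%, 42.1 to 73.0) and mir-8210 (68.9%, 48.2 to 85.7), whose intervals included 50%.

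**Figure D4:**
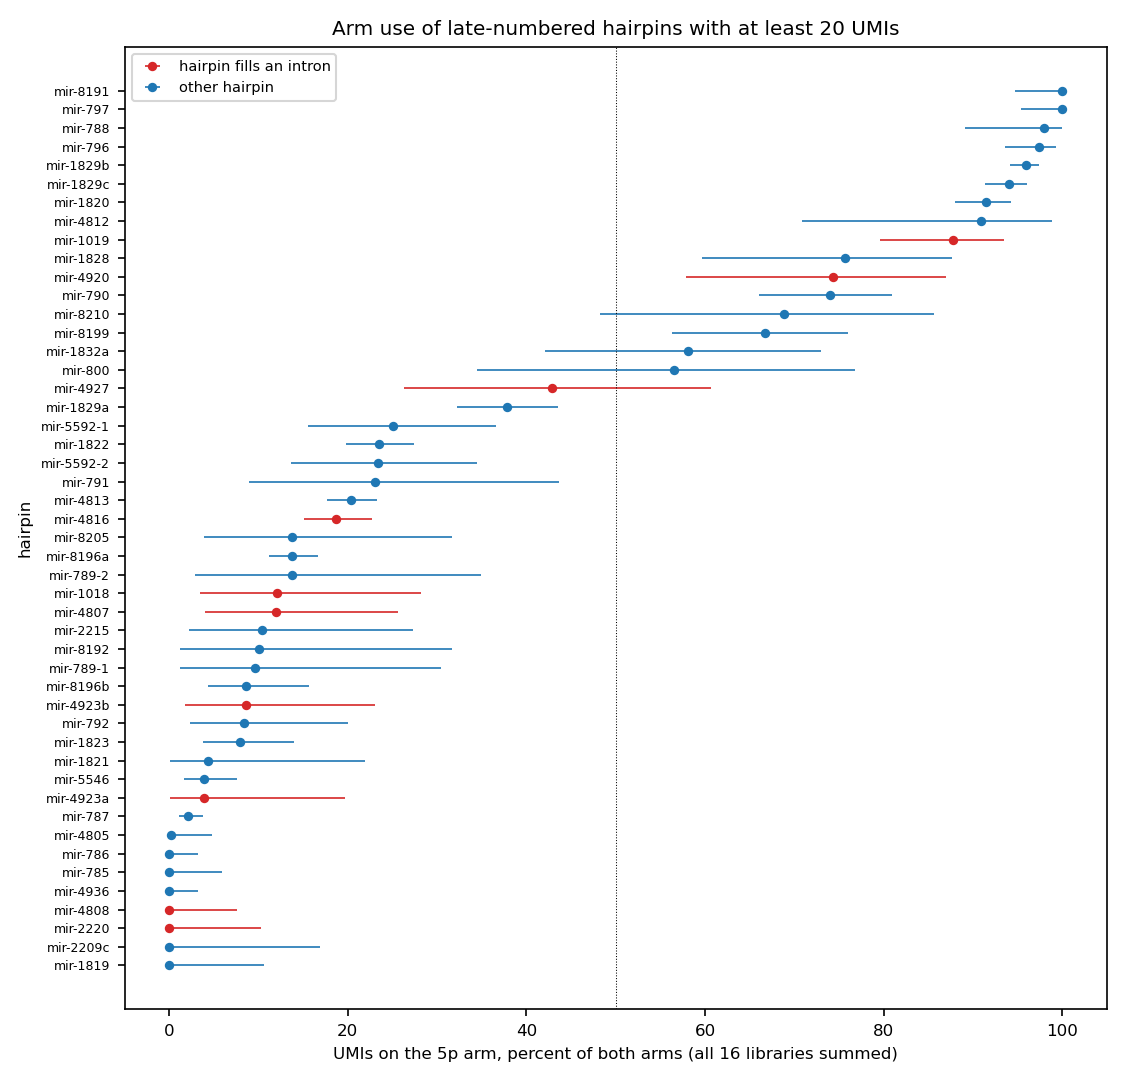
Share of UMIs on the 5p arm (percent, horizontal axis, 16 libraries summed) of the 48 late-numbered hairpins with at least 20 UMIs, sorted; bars are exact 95% binomial intervals, and red marks hairpins that fill an intron. The 5p arm held most UMIs in 16 hairpins and the 3p arm in 32, and 4 intervals include 50%. Copies of mir-5592 and of mir-789 are shown as separate hairpins, although they share UMIs.

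The genomic places of the 70 hairpins were read from the gene annotation for the labels' build, WBcel235, in which 69 were found. Of the 70, 29 (41.4%) lie on chromosome X, where 74 of all 261 annotated miRNA hairpins (28.4%) lie. Of these 29, 10 lie in introns of the single gene Y59E1B.1. In the whole annotation, 38 of 140 late-numbered hairpins lie on X, against 36 of 121 lower-numbered or otherwise named ones. In an intron of a gene on the same strand lay 31, in an exon 4, in an intron of a gene on the other strand 5, and between genes 29. Neighbours were mir-1819 and mir-2212, 66 bases apart on X, mir-2209a and mir-2209c, 53 bases apart on IV, and mir-797, 40 bases from mir-247.

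Of the member hairpins, 15 share both ends with an intron, within 3 bases, which is the mirtron arrangement. In the annotation 20 of 140 late-numbered hairpins have it, against 1 of 121 lower-numbered ones, mir-62. Of the 15, 10 fill introns of a single noncoding gene, Y59E1B.1, on the plus strand of chromosome X: mir-4807, mir-4808, mir-4809, mir-2220, mir-4810b, mir-4810a, mir-1018, mir-4925, mir-4923b and mir-4923a, from 1872466 to 1879936. The other 5 are mir-1019 in dyf-5, mir-4816 in T09B4.2, mir-4920 in sph-1, mir-4924 in T11G6.5 and mir-4927 in M01F1.4. Their 20 strands carried 871 UMIs, 12.1% of the group, of which mir-4816-3p gave 345 and the 10 hairpins of Y59E1B.1 gave 270 on 11 strands. The 15 summed to 306 to 785 CPM per library, with a median of 441. Of the 10 with at least 20 UMIs, the 3p arm was the major one in 8; mir-1019 (5p 87.8%, 79.6 to 93.5) and mir-4920 (74.4%, 57.9 to 87.0) were the exceptions.

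The count files split the UMIs of every strand into the classes GM and PM, which sum to the total. What the letters stand for is not given in the sources used here, so the shares are reported by class name, and GM is the rest to 100%. Over all libraries, PM UMIs made up 3.56% of the UMIs of the 257 other strands outside the family. In the late-numbered strands the PM share per library was 5.19 and 7.79% in the family null, 5.89 and 6.22% with the miR-54 cluster, 7.52 and 6.49% with miR-54 and miR-55, 5.45 and 6.25% with miR-54, 10.7 and 7.92% in the miR-51-hairpin strain, 5.104 and 5.099% in the miR-57-hairpin strain, 2.93 and 8.10% in the miR-53-hairpin strain, and 6.75 and 6.17% in wild type. The mean over libraries was 6.48 ± 1.74% in the late-numbered strands and 3.47 ± 0.26% in the other strands (SD, n = 16). The late-numbered share was higher in 15 of 16 libraries, with miR-53-hairpin replicate 1, the shallowest, as the exception. Both miR-51-hairpin libraries were above both wild-type libraries and both miR-57-hairpin libraries below them, and the other strains overlapped with wild type.

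The PM share varied between strands. Of the 53 members with at least 20 UMIs, 41 had a PM share under 10%, 11 of them 0, and 12 had 10% or more. The 12 include mir-1829b-3p and mir-1829c-3p, whose UMIs are shared, so they are not separate counts. The median of the 53 was 4.69%. In the 71 other strands of 20 UMIs up to the highest late-numbered total it was 2.13%, and 7 of them had 10% or more. Totals within that range were not matched. The strands at 10% or more were chosen after their values were seen. The highest was mir-4927-3p, with 17 of 20 UMIs in the PM class (85.0%, 95% exact interval, 62.1 to 96.8), then mir-4816-3p with 113 of 345 (32.8%, 27.8 to 38.0), mir-8205-3p with 8 of 25 (32.0%, 14.9 to 53.5), mir-2215-3p with 8 of 26 (30.8%, 14.3 to 51.8), mir-2220-3p with 8 of 34 (23.5%, 10.7 to 41.2) and mir-1018-3p with 5 of 29 (17.2%, 5.85 to 35.8). By contrast, mir-787-3p had 7 of 507 (1.38%, 0.557 to 2.82), mir-1822-3p 5 of 388 (1.29%, 0.420 to 2.98) and mir-4813-5p 1 of 173 (0.578%, 0.0146 to 3.18).

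Split by the mirtron arrangement, which was also chosen after the values were seen and carries no test, the 14 3p strands of intron-filling hairpins had 166 of 652 UMIs in the PM class (25.5%), of which mir-4816-3p gave 113. Their 6 5p strands had 12 of 219 (5.48%), of which mir-4816-5p gave 11 of its 79 UMIs (13.9%, 7.16 to 23.5), so mir-4816 had a PM share above 10% on both arms. The 77 strands of other late-numbered hairpins had 4.63%, and their share exceeded that of the 257 other strands outside the family in 14 of 16 libraries. Of 8 such 3p strands with at least 20 UMIs, 6 had a PM share of 10% or more, among them mir-4808-3p (12.8%) and mir-4923a-3p (12.0%), while mir-4923b-3p had 9.38% and mir-4807-3p 0 of 37. Of the 42 members of other hairpins with at least 20 UMIs, 5 did: mir-8205-3p, mir-2215-3p, mir-4812-5p (15%), mir-1829b-3p (11.8%) and mir-1829c-3p (11.6%). The strands mir-1829b-3p and mir-1829c-3p have divided UMIs with nearly the same totals (25.3 and 25.8), so they are not separate counts. Per library, the share was 11.1 to 40.0% in the 3p strands of intron-filling hairpins and 1.75 to 8.82% in the other late-numbered hairpins. The first exceeded both the second and the share of the 257 other strands outside the family in 16 of 16 libraries. Without mir-4816-3p the pooled share of the intron-filling hairpins, both arms, was 12.4%. Per library it was then 0 to 25.0%, and it exceeded that of the other late-numbered hairpins in 15 of 16 libraries. Outside the group, the older mirtron mir-62 had 5.09% on its 3p strand and 18.2% on its 5p strand, so the order of the arms was not the same there.

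**Figure D5:**
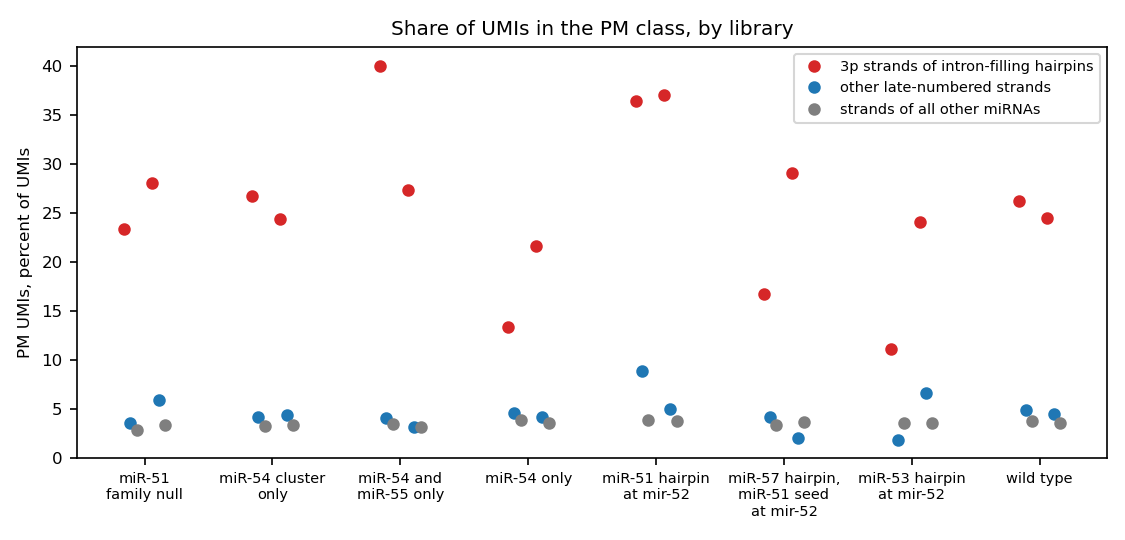
Share of UMIs in the PM class (percent) by library and strain, for the 3p strands of late-numbered hairpins that fill an intron (red), the other late-numbered strands (blue) and all other strands outside the miR-51 family (grey). The red points lie at 11.1 to 40.0% in every strain, above the blue points at 1.75 to 8.82%.

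The number of strands detected was highest in the deepest library. Of the 97 strands, from 31 (miR-53-hairpin replicate 1) to 84 (miR-54-only replicate 1) had a UMI in the mutant libraries, against 97 in wild-type replicate 1 and 76 in wild-type replicate 2. In all 16 libraries 12 strands were detected, the median strand was detected in 10 and the least in 3. These counts include strands with a fraction of a UMI, whereas for thinning UMIs were rounded to whole numbers, which leaves 26 strands in miR-53-hairpin replicate 1. When every library was thinned to 14011 UMIs outside the family, the depth of the shallowest, the expected number of strands detected was 23.9 ± 1.67 in the family null, 26.2 ± 0.456 with the miR-54 cluster, 22.2 ± 4.01 with miR-54 and miR-55, 27.2 ± 3.74 with miR-54, 25.2 ± 6.35 in the miR-51-hairpin strain, 22.3 ± 0.921 in the miR-57-hairpin strain and 24.4 ± 2.21 in the miR-53-hairpin strain, against 24.5 ± 0.806 in wild type (SD, n = 2 each). At equal depth the strains differed by less than the largest spread between replicates, and at this depth a single UMI stood for 71.4 CPM. A strand with 0 UMIs in a shallow library was therefore not shown to be absent.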

How the data were processed

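Small RNA libraries of 16 comma-stage embryo samples were read as deposited, one list of miRNA strands each; a strand missing from a list was taken as 0. Per the labels the build was WBcel235; the aligner is not given in the sources used here. The authors counted UMIs and reads with a Nextflow pipeline. The deposited columns hold estimated counts (reads and UMIs divided over strands that share a sequence) and whole counts (UMIs counted in full), each split into the classes GM and PM. Scaling to spike-ins or piRNAs was not used here, so levels are relative to UMIs on strands outside the miR-51 family.

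Divided UMIs were rounded and tested with edgeR 4.0.16 in R 4.3.3 (quasi-likelihood test, one fit over 16 libraries, strain as the only term, at least 10 UMIs in at least 2 libraries; the fitting function was tested on simulated data). DESeq2 1.42.0 was an alternative, and other scalings, filters, count columns, left-out libraries and a replicate block were tried. PM, arm, level and detection values are descriptions, with exact Clopper-Pearson intervals on UMIs rounded to whole numbers; these cover counting error only, and for strands that share UMIs they are approximate. Thinned detection was computed from the hypergeometric distribution on rounded UMIs. Hairpins were placed with Ensembl annotation release 115 of WBcel235.

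The members and lists were chosen with earlier results of these data known. Strands with 100 UMIs or more are named, the leading 10 with every value, as are hairpins with 20 UMIs by arm use, strands of 20 UMIs with a PM share outside 10 to 90%, and lists of seed families, mirtrons, copies and studied miRNAs; not every strand below 10% is named, and those at 10% or more were added after their values were seen. Listed by name only through their sums or not at all were copies with few UMIs (mir-2208, mir-2217, mir-2218, mir-5593 and mir-1020). No sequences are printed.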

Additional observations from a re-analysis of the deposited data

How the results depend on the processing

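No late-numbered strand was called in the family null, the miR-54 cluster only or the miR-53-hairpin strain under any alternative run. In the other strains 1 or 2 strands were called under some: in MLC2394 (miR-54 and miR-55), mir-4936-3p when all strands set the library size (1), without a filter (1) and with only those 2 strains in the fit (1); with miR-54 only, mir-788-5p without a filter (1) and with at least 5 UMIs in 2 libraries (1); with the miR-57 hairpin, mir-8196a-3p with only those 2 strains in the fit (1); with the miR-51 hairpin, mir-786-3p and mir-788-5p without a filter (2). Leaving out 1 library gave 0 to 1 calls in MLC2394 (mir-4936-3p, without replicate 2) and 0 to 1 with miR-54 only (mir-786-3p, without replicate 2), and 0 to 0 in the other strains. The log2 fold change of mir-786-3p with the miR-51 hairpin was 2.25 with all libraries and ranged from -4.58 (without replicate 2) to 2.91 (without replicate 1) with 1 library left out. A minimum of 50 UMIs in 2 libraries left 2 members to test. Calls over all strands moved by more than 1.5 times when all strands set the library size (31 against 20 in the family null, 12 against 6 with the miR-54 cluster, 39 against 18 with miR-54 only, 31 against 13 with the miR-57 hairpin), and with only 2 strains in the fit (20 against 9 with miR-54 and miR-55, 35 against 13 with the miR-57 hairpin). Without either wild-type library they fell to 12 in the family null, 13 with the miR-51 hairpin and 10 or 11 with miR-54 only. Without the 3 libraries highest in larval markers, an alternative chosen after seeing the data, 0 late-numbered strands were called in any strain, and calls over all strands with the miR-51 hairpin were 15 against 23.

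Libraries with the same replicate number did not deviate in a common direction (28 pairs of strains, correlations of -0.45 to 0.40, median -0.05, 8 of them above 0.1). The numbers were therefore not used to pair the samples. A batch that crosses the numbers was not tested and could give correlations of both signs. With a replicate block 0 late-numbered strands were called in each of the 7 comparisons.

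The mean pooled level stayed within its SD under every alternative run, and was 3.44 to 3.597 per 1000 with 1 library left out. This mean is over all strains. The order of single strains against wild type changed with all UMIs as the denominator. The mean PM share was 6.19 to 6.71% with 1 library left out, 4.69% as the median over strands of 20 UMIs, and 4.47% without the 15 hairpins that fill an intron (chosen after seeing the data). The 3p arm was the major one in 22 of 33 hairpins that reached 10 UMIs in a library. Without wild type, where fewer hairpins reached that count, it was the major one in 12 of 22. Both counts take the copies of mir-5592 as separate hairpins. The mean number of strands detected was 24.5 at equal depth, 63.3 with all UMIs, fractions included, and 10.7 at 2 UMIs or more. Depth limits these data: 73 of 97 strands did not pass the filter of 10 UMIs in 2 libraries.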

Other observations

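Below the limit of 5 UMIs lay 81 further late-numbered strands with 160 UMIs in all, 33 of them with at most 1 UMI in the 16 libraries. Among them were the 4 strands of mir-2208a and mir-2208b, which summed to 13 UMIs. Leaving wild-type replicate 1 out, 87 of the 97 late-numbered strands would still have reached 5 UMIs.

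Reads per UMI were 1.02 to 1.59 on the late-numbered strands and 1.05 to 1.63 on the other strands outside the family, with 1.05 and 1.21 in wild-type replicate 1. On the other strands they were 1.05 and 1.07 in the family null and 1.08 and 1.08 with the miR-54 cluster. They were 1.12 and 1.55 with miR-54 and miR-55, and 1.09 and 1.59 with miR-54. In the miR-51-, miR-57- and miR-53-hairpin strains they were 1.40 and 1.57, 1.63 and 1.15, and 1.39 and 1.09. Wild type had 1.21 and 1.07. Whether libraries with higher values form a batch was not tested.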
